A study of Mus musculus with 24 samples.

Results

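The BMP ligand genes *Bmp2*, *Bmp4*, *Bmp5*, *Bmp6*, *Bmp7* and *Bmp10* were examined in the anterior heart field (AHF) of mouse embryos lacking *Tbx1*, β-catenin or *Tbx1* together with 1 copy of the β-catenin gene. The 6 genes were chosen by name as ligands of the pathway, and they are 6 of 19938 genes measured. Each had 1 probe set on the array. RNA from pools of dissected E9.5 tissue was hybridised to whole-transcript mouse arrays (Affymetrix Gene ST), 24 in all, in 6 groups of 4. The values are log2 intensities, so a difference of 1 is a doubling, and levels of different genes were not set against each other.

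*Tbx1 LOF* embryos were *Mef2c-AHF-Cre/+;Tbx1 f/-* or *Mef2c-AHF-Cre/+;Tbx1 f/f*, which were combined as 1 group. *β-cat LOF* embryos were *Mef2c-AHF-Cre/+;β-catenin f/f*, and rescue embryos carried the *Tbx1 LOF* genotype with 1 floxed β-catenin allele in addition. *Mef2c-AHF-Cre* drives recombination only in the AHF and the cells that descend from it, so other cells of the dissected tissue, and the *Tbx1*-expressing endoderm among them, kept their floxed alleles. In *Tbx1 f/-* embryos these other cells also carried the null allele and were heterozygous for *Tbx1*. Each mutant group had its own controls. The methods describe these as floxed heterozygotes without Cre, and the sample labels name wild type and Cre-carrying heterozygous littermates, and which of these were hybridised stays unknown.

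Bone morphogenetic proteins are secreted dimers of the TGF-β superfamily that bind pairs of receptor kinases and act through phosphorylated SMAD proteins, which enter the nucleus together with SMAD4. Antagonists such as noggin, gremlin and follistatin bind the ligands outside the cell, and the inhibitory SMADs, induced by the signal itself, damp it inside. In the early heart, BMPs promote the differentiation of heart field mesoderm into heart muscle, and later they act in the formation of the outflow tract, the cushions and the trabeculae.

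The targeted gene *Tbx1* read 10.98, 11.28, 11.43 and 11.40 in *Tbx1 LOF* arrays and 11.91, 11.77, 11.98 and 11.99 in their controls, and was also below all controls in the rescue arrays. *Ctnnb1*, which encodes β-catenin, differed by a log2 fold change of −0.03 in *β-cat LOF*, and whether its probe set lies in the deleted exons is unknown, so it checks no label. The mean of 9 AHF marker genes lay between 10.47 and 10.77 in every array, but it was not the same in all groups. At an unadjusted p under 0.05 in limma, 4 of the 9 were lower in *Tbx1 LOF* and 1 was higher. These were the targeted gene *Tbx1* itself (−0.64), *Fgf10* (−0.39), *Six2* (−0.38) and *Eya1* (−0.24), and *Hand2* (0.25). The list mean, which includes *Tbx1*, was lower in all rescue arrays than in all their controls, by 0.11. The tissue also held heart muscle RNA, and here the arrays differed more: the mean of 18 myocardial genes was 12.47 in replicate 2 of the *β-cat LOF* controls and 9.33 to 11.01 in the other 23 arrays. Results that rest on this control array are given with and without it. In such bulk tissue, fewer cells of a type and less RNA per cell cannot be told apart.

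All 6 ligand genes had a positive log2 fold change in *Tbx1 LOF*, with a median of 0.22, and all 6 had a negative one in *β-cat LOF*, with a median of −0.24. Over all genes the median was −0.01 for *Tbx1 LOF* and 0.01 for *β-cat LOF*. In rescue embryos all 6 were again positive, with a median of 0.06 and none past the threshold. Over all genes, 41.3% had a positive change in *Tbx1 LOF*, 42.6% a negative one in *β-cat LOF*, 18.7% both, and 39.1% a positive one in rescue.

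**Figure D1:**
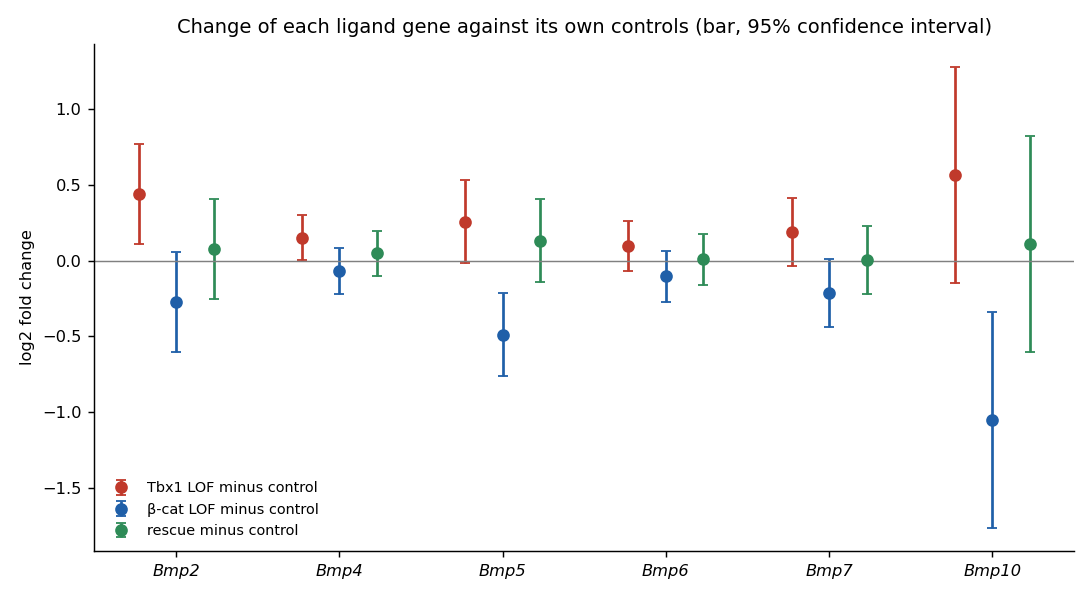
Log2 fold change of the 6 ligand genes (horizontal axis) in *Tbx1 LOF*, *β-cat LOF* and rescue embryos, each against its own controls, as points with 95% confidence intervals from 1 limma fit (n = 4 arrays per group). The *Tbx1 LOF* points lie at 0.10 to 0.57, the *β-cat LOF* points at −1.05 to −0.07, and the intervals exclude 0 for *Bmp2* and *Bmp4* in *Tbx1 LOF* and for *Bmp5* and *Bmp10* in *β-cat LOF*.

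A gene was called at an unadjusted p under 0.05 in limma, the threshold that the methods use. By this rule 2 of the 6 ligand genes rose in *Tbx1 LOF* (*Bmp2* and *Bmp4*), 2 fell in *β-cat LOF* (*Bmp5* and *Bmp10*) and 0 changed in rescue. Among all genes 4.12% were called in *Tbx1 LOF* (2.17% as higher), 5.72% in *β-cat LOF* (2.88% as lower) and 1.27% in rescue. With a fold change over 1.5 in addition, 0 passed in *Tbx1 LOF* (0.326% of all genes), 1, *Bmp10*, in *β-cat LOF* (0.451%) and 0 in rescue (0.01%). No ligand gene passed after Benjamini-Hochberg adjustment over all genes in any comparison, where 0.0301% of all genes did in *Tbx1 LOF* and 0% in the other two. Leaving out replicate 2 of the *β-cat LOF* controls gave 5 called genes in *Tbx1 LOF*, all but *Bmp6*, against 4.8% of all genes, and the same 2 in *β-cat LOF*, against 3.24%. The mutant arrays lay above all controls for *Bmp2* and *Bmp10* in *Tbx1 LOF* (1.32% of all genes) and below all controls for *Bmp5* in *β-cat LOF* (0.787% of all genes).

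**Figure D2:**
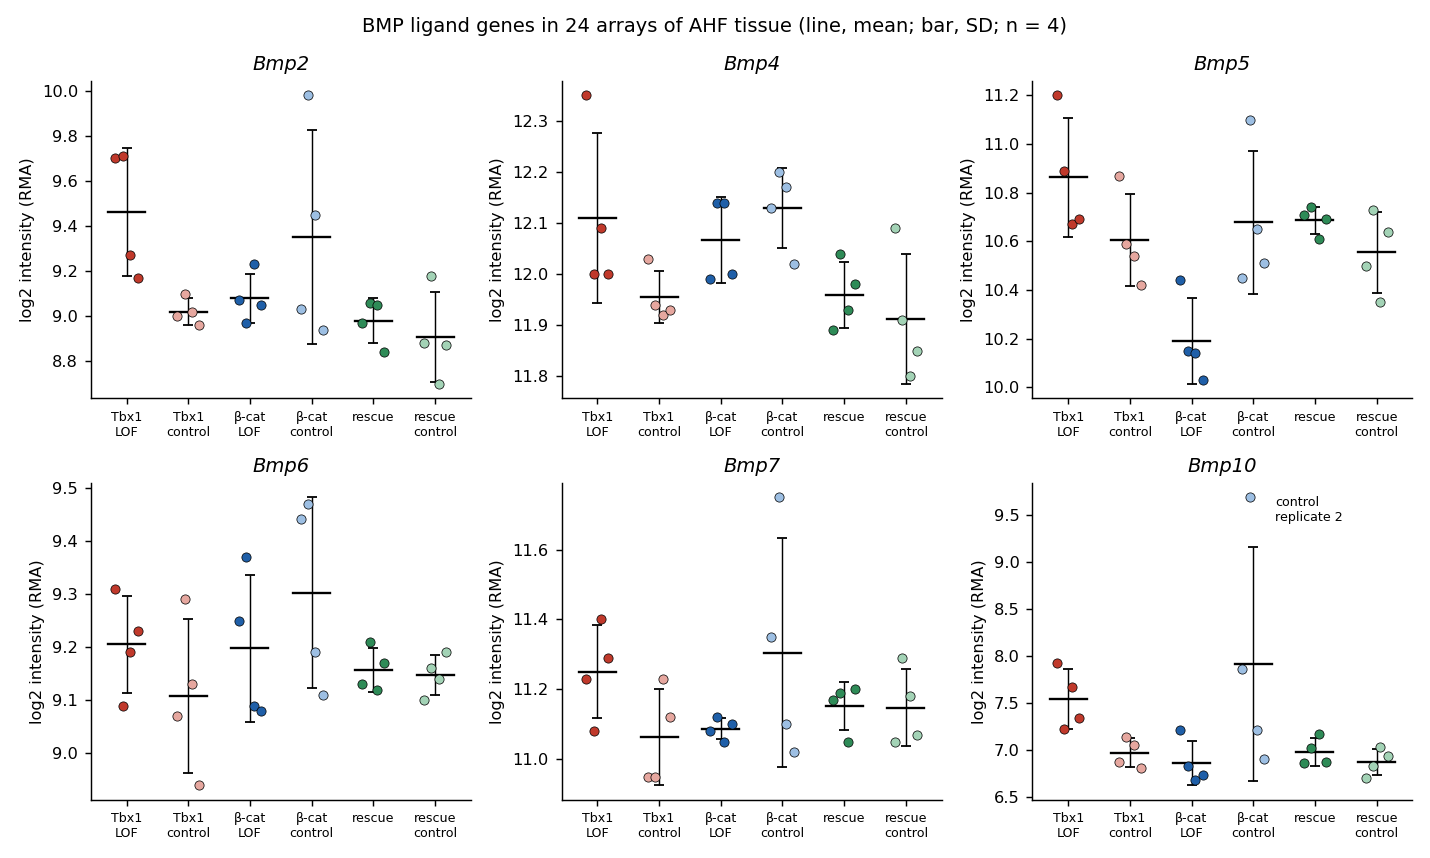
Log2 intensity of each ligand gene in the 24 arrays (vertical axis, a separate scale per gene), with mutant groups left of their controls; points are arrays, lines are group means and bars are SDs. *Bmp2* and *Bmp10* are above all controls in the 4 *Tbx1 LOF* arrays, *Bmp5* is below all controls in the 4 *β-cat LOF* arrays, and replicate 2 of the *β-cat LOF* controls is the highest of the 24 arrays for *Bmp2*, *Bmp6*, *Bmp7* and *Bmp10*.

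*Bmp2* (chr2:133552159-133562896, GRCm38.p6) encodes a ligand that is required in mouse for early heart formation and for the atrioventricular canal. It read 9.70, 9.71, 9.27 and 9.17 in the *Tbx1 LOF* arrays, against 9.0, 9.10, 9.02 and 8.96 in their controls. All 4 mutant arrays were above all 4 controls, with replicates 1 and 2 the highest, and the groups averaged 9.46 ± 0.28 and 9.02 ± 0.06 (SD, n = 4 each). This was a log2 fold change of 0.44 (SE 0.16), a 1.36-fold difference with a 95% interval of 1.08 to 1.71 (limma, unadjusted p = 0.0112, adjusted p = 0.860). An exact permutation test over the arrays gave p = 0.0286, the smallest that 4 arrays against 4 allow. The call held in all 24 fits that left out 1 array, with the highest unadjusted p in limma, 0.0458, without mutant replicate 2. Fits without an array of another experiment keep this fold change and alter only its SE. The difference was 0.65 in arrays numbered 1 and 2 and 0.23 in arrays numbered 3 and 4, which did not pass alone.

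In *β-cat LOF*, *Bmp2* read 9.07, 8.97, 9.23 and 9.05 in the mutant arrays, against 9.03, 9.98, 9.45 and 8.94 in the controls. The mutant arrays lay within the range of the controls, of which replicates 2 and 3 were high. The log2 fold change of −0.27 (SE 0.16) did not pass (limma, unadjusted p = 0.103). It shrank to −0.06 when control replicate 2 was left out, and it gained the call without control replicate 1 (−0.38, unadjusted p = 0.0341 in limma) and without control replicate 4 (−0.41, unadjusted p = 0.0168). In rescue the values were 8.97, 9.06, 9.05 and 8.84 in the mutant arrays, against 8.88, 9.18, 8.70 and 8.87 in the controls, which overlapped. The log2 fold change there was 0.08 with a 95% interval of −0.26 to 0.41, and that of *Tbx1 LOF* minus that of rescue was 0.37 with an interval of −0.10 to 0.83 (limma, unadjusted p = 0.119), so the 2 changes were not shown to differ. Without the same β-cat control array, which enters the estimate of the spread, this last difference had an unadjusted p of 0.0428, where 2.13% of all genes were called.

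*Bmp4* (chr14:46383525-46390669), the closest relative of *Bmp2* and a ligand that acts in outflow tract septation in mouse, read 12.35 and 12.09 in replicates 1 and 3 of *Tbx1 LOF* and 12 in replicates 2 and 4, against 12.03, 11.94, 11.92 and 11.93 in the controls. Replicates 1 and 3 of the mutants were above all controls, and the other 2 overlapped with the highest control. A log2 fold change of 0.15 (SE 0.07) just passed (limma, unadjusted p = 0.0468, adjusted p = 0.9998), and the exact permutation test did not (p = 0.0857). The call was lost in 11 of the 24 fits that left out 1 array, with a p of up to 0.287 without mutant replicate 1. The others were mutant replicate 3, replicates 2, 3 and 4 of its controls, replicates 1 and 3 of the *β-cat LOF* controls, replicates 3 and 4 of rescue and replicates 2 and 4 of the rescue controls. In *β-cat LOF* and rescue the log2 fold changes were −0.07 and 0.05, and all 16 values lay between 11.80 and 12.20.

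*Bmp5*, *Bmp6* and *Bmp7* form a second subgroup of closely related ligands with partly overlapping roles in the mouse heart. *Bmp5* (chr9:75775365-75900316) gave the lowest p of the 6 in *β-cat LOF*. It read 10.44, 10.15, 10.14 and 10.03 in the mutant arrays, against 10.45, 11.10, 10.65 and 10.51 in the controls. The 4 mutant arrays were all lower than the 4 controls, mutant replicate 1 by only 0.01 from control replicate 1, and the groups averaged 10.19 ± 0.17 and 10.68 ± 0.29 (SD, n = 4 each). Between the groups the log2 fold change was −0.49 (SE 0.13), or 0.713-fold with a 95% interval of 0.590 to 0.861 (limma, unadjusted p = 0.00118, adjusted p = 0.593; exact permutation test, p = 0.0286). The call held in all 24 fits that left out 1 array, of which those without an array of another experiment alter only the SE. The change was −0.48 in arrays numbered 1 and 2 and −0.49 in arrays numbered 3 and 4.

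Without control replicate 2, *Bmp5* remained below all controls in the 4 *β-cat LOF* arrays, with a log2 fold change of −0.35 (limma, unadjusted p = 0.00908). The exact permutation test then gave p = 0.0571, the smallest that 4 arrays against 3 allow. In *Tbx1 LOF*, *Bmp5* read 11.20, 10.89, 10.67 and 10.69 in the mutant arrays, against 10.87, 10.59, 10.54 and 10.42 in the controls. Each mutant array was above the control of the same number, but the groups overlapped at control replicate 1, and the log2 fold change of 0.26 (SE 0.13) did not pass (limma, unadjusted p = 0.0617). With the replicate number as a block it did (limma, unadjusted p = 0.0277), where 5.57% of all genes were called. The labels do not pair the arrays, so this pairing by number is uncertain. In rescue its mutant values were 10.71, 10.74, 10.61 and 10.69 and its control values 10.50, 10.73, 10.35 and 10.64, a log2 fold change of 0.13 (SE 0.13) that did not pass.

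*Bmp7* (chr2:172868012-172940321), which acts with *Bmp6* in the outflow tract cushions in mouse, had log2 fold changes of 0.19 (SE 0.11) in *Tbx1 LOF*, −0.22 (SE 0.11) in *β-cat LOF* and 0.00 in rescue, none of which passed. Its values were 11.23, 11.08, 11.40 and 11.29 in *Tbx1 LOF* arrays, against 10.95, 10.95, 11.23 and 11.12 in the controls. Each mutant array was again above the control of the same number, a pairing that the labels do not give, and the groups overlapped at mutant replicate 2. In *β-cat LOF* it read 11.08, 11.12, 11.05 and 11.10, against 11.35, 11.75, 11.10 and 11.02 in the controls. The 4 mutant arrays were nearly alike and lay inside the range of the controls, of which replicates 1 and 2 were high. The difference was −0.45 in arrays numbered 1 and 2 and 0.01 in arrays numbered 3 and 4, and it was −0.07 without control replicate 2.

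*Bmp6* (chr13:38345716-38500314), whose product also regulates iron through hepcidin in the liver, passed in no comparison. Its *Tbx1 LOF* arrays read 9.09 to 9.31 and their controls 8.94 to 9.29, a log2 fold change of 0.10 (SE 0.08). The *β-cat LOF* arrays read 9.08 to 9.37 and their controls 9.11 to 9.47, a log2 fold change of −0.10 (SE 0.08). In rescue it read 9.12 to 9.21 in mutants and 9.10 to 9.19 in controls, and the interval of the change was −0.16 to 0.18. Mutant and control arrays overlapped each time.

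*Bmp10* (chr6:87428994-87434512) encodes a ligand made by heart muscle itself, first in the trabeculae of the ventricles and later in the atria, and in mouse it is required for the trabecular myocardium to grow. It varied most of the 6 between arrays, from 6.68 to 9.69. It read 7.93, 7.23, 7.67 and 7.34 in *Tbx1 LOF* arrays, against 6.88, 7.14, 7.06 and 6.81 in their controls. The 4 mutant arrays were above all controls, replicates 1 and 3 clearly so, and averaged 7.54 ± 0.32, against 6.98 ± 0.15 in the controls (SD, n = 4 each). The log2 fold change of 0.57 (SE 0.34) did not pass in the fit over all 24 arrays (limma, unadjusted p = 0.114), and an exact permutation test over these 8 arrays gave p = 0.0286. Without β-cat control replicate 2 the same difference had an SE of 0.17 and passed (unadjusted p = 0.00246, adjusted p = 0.261), since that array enters the spread used for each comparison.

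In *β-cat LOF*, *Bmp10* read 7.21, 6.83, 6.68 and 6.74 in the mutant arrays, against 7.86, 9.69, 7.21 and 6.91 in the controls. Control replicate 2 stood 1.83 above the next control, 3 of the 4 mutant arrays were below all controls, and mutant replicate 1 read as high as control replicate 3. The log2 fold change was −1.05 (SE 0.34), or 0.483-fold with a 95% interval of 0.294 to 0.791 (limma, unadjusted p = 0.00573, adjusted p = 0.745), and the exact permutation test gave p = 0.0857. It was not called when limma was fitted to this experiment alone (unadjusted p = 0.0539) or with array weights (unadjusted p = 0.0625). Leaving out control replicate 2 gave −0.46 (unadjusted p = 0.0176), while arrays numbered 3 and 4 alone gave −0.35, against −1.75 in arrays numbered 1 and 2. In rescue the mutant arrays read 6.86, 7.02, 7.17 and 6.87 and the controls 6.70, 6.83, 7.03 and 6.94, which overlapped, and the log2 fold change was 0.11 with a 95% interval of −0.61 to 0.82.

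**Figure D3:**
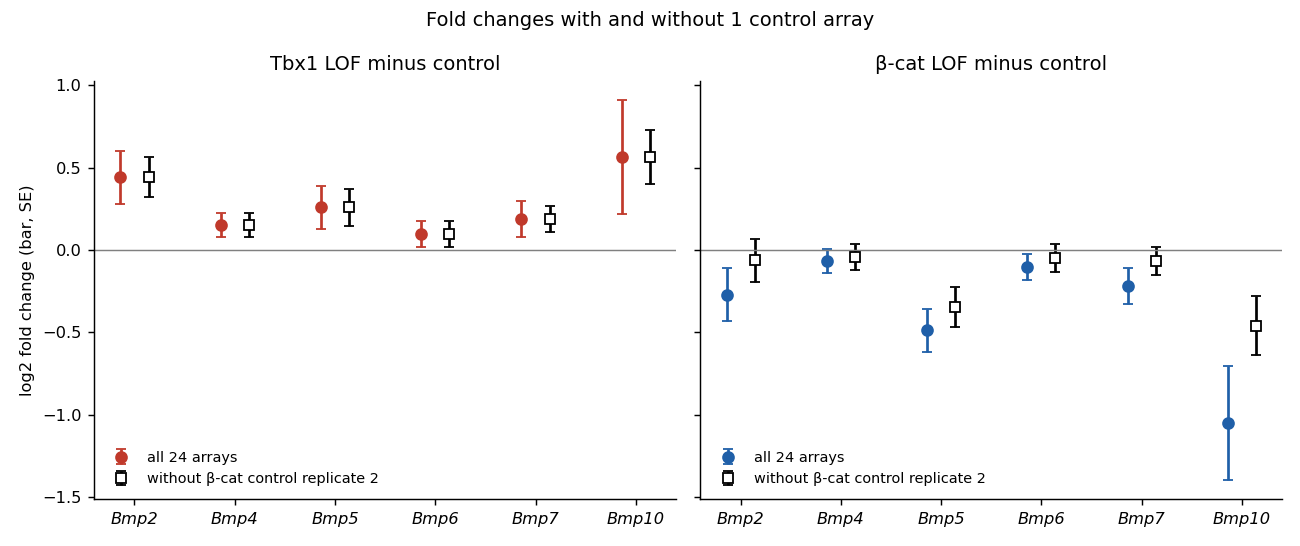
Log2 fold changes (vertical axis; bars are SEs) of the ligand genes in *Tbx1 LOF* (left) and *β-cat LOF* (right), from the fit of all 24 arrays (filled circles) and without replicate 2 of the *β-cat LOF* controls (open squares). In *Tbx1 LOF* the values are the same and the SE of *Bmp10* is 0.34 with that array and 0.17 without it. In *β-cat LOF* the change of *Bmp10* is −1.05 with it and −0.46 without it, and that of *Bmp2* is −0.27 with it and −0.06 without it.

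The letters upstream of the genes called in *β-cat LOF* are shown because that comparison removes the partner of the TCF/LEF factors. The RefSeq promoter table used here, on GRCm38.p6, held 4 of the 6 genes (*Bmp4*, *Bmp5*, *Bmp6* and *Bmp10*), and the 250 bases before their start sites were searched on both strands for 5 motifs: CTTTGA for the TCF/LEF factors, AGATAA for the GATA factors, GGTGTG for the T-box factors, GGCGCC for SMAD proteins, and the NKX2-5 motif TNAAGTG. The window of *Bmp10*, chr6:87428744-87428993 on the plus strand, held AGATAA at 219 and 33 bases before the start, printed in capitals, and that of *Bmp5*, chr9:75775115-75775364 on the plus strand, held none of the 5.
Bmp10: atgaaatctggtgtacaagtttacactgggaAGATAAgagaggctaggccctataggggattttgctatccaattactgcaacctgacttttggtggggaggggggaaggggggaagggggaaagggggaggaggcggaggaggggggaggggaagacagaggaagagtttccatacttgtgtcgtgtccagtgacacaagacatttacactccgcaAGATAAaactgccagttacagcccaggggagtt
Bmp5: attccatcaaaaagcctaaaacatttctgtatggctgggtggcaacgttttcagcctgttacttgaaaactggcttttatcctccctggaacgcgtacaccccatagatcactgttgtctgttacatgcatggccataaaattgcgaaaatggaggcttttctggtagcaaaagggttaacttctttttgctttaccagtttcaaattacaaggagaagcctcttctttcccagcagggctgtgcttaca
AGATAA was present in 9.99% of 32851 such windows of the genome and CTTTGA in 13.8%, GGTGTG in 16.3%, GGCGCC in 9.59% and TNAAGTG in 10.1%. The *Bmp6* window held GGTGTG once, on the opposite strand, and that of *Bmp4* none of the 5. These are matches of letters and not binding sites.

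The change in *Tbx1 LOF* was set against that in *β-cat LOF* directly, as the difference of the 2 log2 fold changes, which share no arrays. It was positive for all 6 genes and called for 5 of them, against 6.44% of all genes. The difference was 1.62 (SE 0.49) for *Bmp10*, 0.75 (SE 0.19) for *Bmp5*, 0.71 (SE 0.23) for *Bmp2*, 0.41 (SE 0.15) for *Bmp7* and 0.22 (SE 0.10) for *Bmp4*. In limma the adjusted p was 0.127 for *Bmp5*, 0.267 for *Bmp10* and 0.312 for *Bmp2*, so none passed over all genes, where 0.0502% did. Of the 5, *Bmp2*, *Bmp5* and *Bmp10* also differed by over 1.5-fold, and 1.19% of all genes met both criteria. *Bmp6*, at 0.20, was not called. Without β-cat control replicate 2 the call was kept for 4 genes, against 4.73% of all genes, with 1.02 (SE 0.24) for *Bmp10* and 0.61 (SE 0.17) for *Bmp5*, and was lost for *Bmp4* (unadjusted p = 0.0826).

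Between *β-cat LOF* and rescue 2 of the 6 changes differed, against 4.85% of all genes, with −0.62 (SE 0.19) for *Bmp5* and −1.16 (SE 0.49) for *Bmp10*. Both also differed by over 1.5-fold, and 0.507% of all genes met both criteria. Without β-cat control replicate 2 they were −0.48 and −0.57, both still called (3.51% of all genes). Between *Tbx1 LOF* and rescue 0 of the 6 differed, against 1.71% of all genes, and 0 with the fold change in addition, against 0.145%. The changes in *Tbx1 LOF* exceeded those in rescue by 0.09 to 0.46, and for *Bmp10* the 95% interval of that difference was −0.55 to 1.47.

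Across the 6 groups, the mean of *Bmp10* was highest in the *β-cat LOF* controls (7.92), followed by *Tbx1 LOF* (7.54), rescue (6.98), the *Tbx1 LOF* controls (6.98), the rescue controls (6.87) and *β-cat LOF* (6.87). Without replicate 2 the mean of the *β-cat LOF* controls was 7.33, below that of *Tbx1 LOF*. Of the neighbours in the order with all arrays, only *Tbx1 LOF* (lowest array 7.23) and rescue (highest array 7.17) did not overlap. These are levels in different experiments, and the share of all genes with such a gap was not counted. The changes of *Bmp10* in these mutants, each against its own controls, were not shown to differ (limma, unadjusted p = 0.357). With control replicate 2 included, the control means of *Bmp10* spanned 1.04 between experiments, beside 1.05 over all groups, and both spans were narrower without it. For *Bmp5* the control means were within 0.12 of each other and the group means spanned 0.67. *β-cat LOF* (10.19) was at the low end for *Bmp5*, below the rescue controls (10.56). For the 5 genes other than *Bmp10* every neighbouring pair of groups overlapped.

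Marker genes of heart muscle varied with the ligand genes, as did markers of other tissues. The list of 18 myocardial genes had 13 genes higher and 0 lower in *Tbx1 LOF*, 0 higher and 16 lower in *β-cat LOF*, and 0 called in rescue, with medians of 0.72, −0.97 and 0.23. Without β-cat control replicate 2, 17 were called as higher for *Tbx1 LOF*, and for *β-cat LOF* 13 were called as lower. Its mean per array ranged from 10.37 to 10.68 in *Tbx1 LOF* and from 9.47 to 10.01 in the controls, from 9.69 to 10.23 in *β-cat LOF* and from 10.27 to 12.47 in the controls, and from 9.61 to 10.14 in rescue and from 9.33 to 10.16 in the controls. The arrays of mutants and controls did not overlap in this mean in *Tbx1 LOF*, where it differed by 0.76, nor in *β-cat LOF*, where it differed by −1.15, or by −0.67 when control replicate 2 was left out. Whether the amount of heart muscle in the tissue has a part in the ligand changes was not tested.

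Over the 24 arrays, with each experiment centred on its own mean, Pearson's r with the myocardial mean was 0.895 for *Bmp10*, 0.834 for *Bmp7*, 0.822 for *Bmp5*, 0.763 for *Bmp2*, 0.606 for *Bmp6* and 0.478 for *Bmp4*. Without β-cat control replicate 2 it was 0.732 for *Bmp10*, 0.700 for *Bmp5*, 0.630 for *Bmp7* and 0.559 for *Bmp2*. Other lists were as close or closer for some of the ligands. Without that array r with 7 genes of the posterior heart field and inflow was 0.795 for *Bmp10*, 0.784 for *Bmp6* and 0.638 for *Bmp4*, and r with 8 genes of liver, gut and mesothelium was 0.625 for *Bmp2*. With 8 genes of neural crest and arch mesenchyme it was −0.731 for *Bmp10*. These values describe arrays that share genotype, pools and normalization, and they were not tested.

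**Figure D4:**
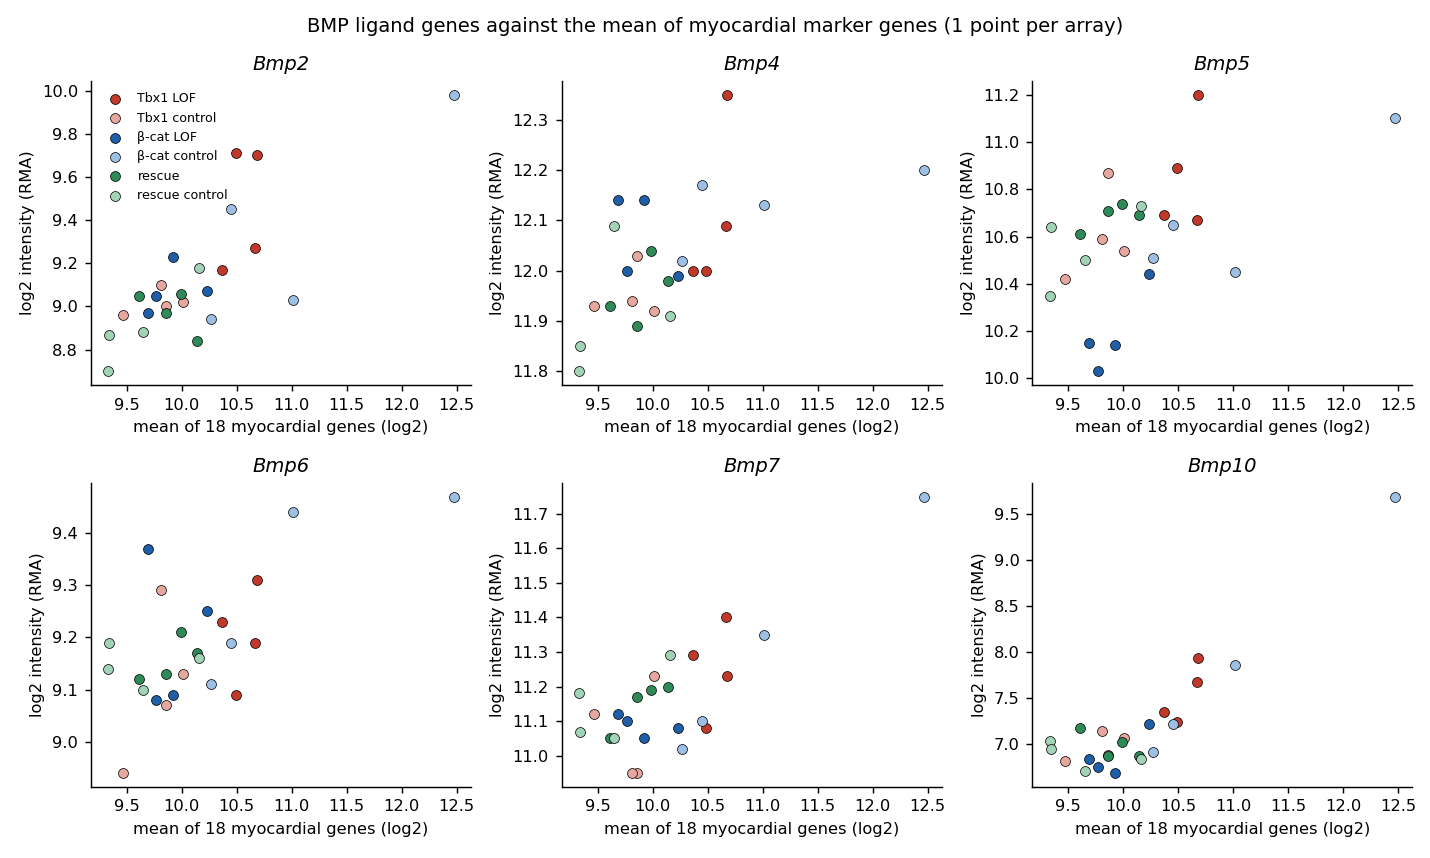
Each ligand gene (vertical axis, log2 intensity, a separate scale per gene) against the mean log2 intensity of 18 myocardial genes (horizontal axis), with 1 point per array coloured by group and no centring. The point at 12.47 on the horizontal axis is replicate 2 of the *β-cat LOF* controls, and 3 of the 4 *β-cat LOF* arrays lie lowest of all for *Bmp5*.

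Markers of 5 other tissues were counted in the same way. Of 7 genes of the posterior heart field and inflow, 4 rose in *Tbx1 LOF* while 3 fell in *β-cat LOF* (*Tbx5*, *Wnt2* and *Gata6*). Without control replicate 2 the 3 called as lower in *β-cat LOF* were *Tbx5*, *Osr1* and *Foxf1*. Of 8 genes of liver, gut and mesothelium 4 rose in *Tbx1 LOF*, with list means of 8.60 to 9.30 in the mutant arrays and 8.23 to 8.83 in the controls. Of 8 endothelial and endocardial genes 6 fell in *β-cat LOF*, and 2 without control replicate 2. Of 7 neural tube genes *Olig2* (0.69), *Pax6* (0.49), *Sox2* (0.28) and *Nkx2-2* (0.26) rose in *β-cat LOF*, and of these *Olig2* without control replicate 2. The mean of this list was higher in all mutant arrays than in all controls there, by 0.37, or by 0.35 without control replicate 2, opposite to the ligand genes. The mean of 8 neural crest and arch mesenchyme genes was lower in all *Tbx1 LOF* arrays than in all controls, by 0.15 on the log2 scale, with 1 of the 8 called. The part of these tissues in the ligand results was not tested.

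The rest of the pathway was counted from lists. Of 18 other ligands of the TGF-β superfamily, 2 rose and 1 fell in *Tbx1 LOF* and 0 were called in *β-cat LOF* or rescue. Those that rose were *Tgfb2* (0.22), a TGF-β of the outflow cushions, and *Gdf2* (0.20), the closest relative of *Bmp10*, and *Bmp3* (−0.21), which opposes other BMPs, fell. The median of these 18 was −0.04 for *Tbx1 LOF* and 0.02 for *β-cat LOF*, near the −0.01 and 0.01 of all genes.

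Of 14 receptors and co-receptors, 3 fell in *Tbx1 LOF*, namely the BMP co-receptors *Rgma* (−0.23) and *Rgmb* (−0.21) and the TGF-β receptor *Tgfbr2* (−0.14). In *β-cat LOF* 3 fell and 1 rose. The 3 were the co-receptors *Hjv* (−0.48), *Tgfbr3* (−0.30) and *Eng* (−0.23), of which only *Hjv* was called without control replicate 2, and the gene that rose was *Rgma* (0.22), which was not called without it. None of the type I and type II BMP receptor genes was called in these experiments.

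Inside the cell, 2 of 10 genes rose in *Tbx1 LOF*, the inhibitory SMADs *Smad7* (0.16) and *Smad6* (0.14), which BMP signals induce. *Smad6* fell in *β-cat LOF* (−0.16), a call lost without control replicate 2. Among 16 secreted or membrane antagonists and modulators, 2 rose and 3 fell in *Tbx1 LOF*. *Bambi* (0.33), a decoy receptor induced by BMP, and *Bmper* (0.15), which binds BMPs outside the cell, rose. The follistatin gene *Fst* (−0.48), the chordin relative *Chrdl1* (−0.40) and the gremlin gene *Grem1* (−0.38) fell. In *β-cat LOF* 1 of the 16 was called, *Bmper* (−0.15), and without control replicate 2 none.

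Among 15 genes known as BMP targets or as transcription factors downstream of BMP in the heart, 5 rose in *Tbx1 LOF* and 0 fell. They were *Gata4* (0.85), *Tbx20* (0.71), *Hand1* (0.48), *Hand2* (0.25) and *Tbx2* (0.20), all transcription factors of the heart, whereas none of the *Id* and *Msx* genes, general BMP targets, was called there. In *β-cat LOF* 3 fell, *Gata4* (−0.59), *Tbx20* (−0.45) and *Tbx2* (−0.16), and *Id4* (0.20) rose, and 0 of the 15 were called without control replicate 2. In rescue 0 genes of these 5 lists were called. Without β-cat control replicate 2, *Nkx2-5* (0.27) and *Tgfbr3* (0.21) were also called as higher in *Tbx1 LOF*, and *Nbl1* (−0.10) as lower. Of all genes, 4.12% were called in *Tbx1 LOF* (4.8% without that array), 5.72% in *β-cat LOF* (3.24% without it) and 1.27% in rescue. No gene of these lists passed the adjusted threshold over all genes.

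The genes whose values followed each ligand most closely were ranked by Pearson's r over the 24 arrays, centred by experiment. *Bmp10* was followed by *Emilin2* (0.967) and *Fitm1* (0.957), and *Bmp7* by *Tnni1* (0.927), slow skeletal troponin I, which the embryonic heart uses, and *Rbm24* (0.920), a splicing factor of muscle. *Bmp5* was followed by *Add3* (0.920) and *Cgnl1* (0.899), *Bmp2* by *Emp2* (0.895) and *Arhgap1* (0.887), *Bmp6* by *Adgra2* (0.825) and *Sdk2* (0.823), and *Bmp4* by *F11r* (0.794) and *Foxp1* (0.778). Without β-cat control replicate 2, 4 of the 5 closest genes were kept for *Bmp5* and for *Bmp6*, and 2 of 5 for each of the others.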

How the data were processed

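The authors made the deposited log2 values by RMA in oligo (background correction, quantile normalization, summarization per probe set). The methods name ComBat for removing batch effects. Not given in the sources used here are the versions, the array batches and whether the deposited values hold that step. Of 35556 probe sets, 21789 with 1 gene symbol were kept and averaged per gene, which gave 19938 genes. All 24 arrays entered 1 limma 3.58.1 fit (R 4.3.3) with 6 group means and no filter, with 18 residual degrees of freedom, and adjusted p-values are Benjamini-Hochberg over all genes. The fit was tested on simulated data. Single genes were also compared by two-sided exact permutation tests. Labels name no separate litters, so p-values measure the spread between arrays, whose number limits the precision. The 6 genes, the gene lists and the alternatives were chosen with earlier results of these data known. All 6 genes are named, other pathway genes where called (up to 5 per list and comparison) and the closest genes by correlation. Figures used matplotlib 3.10.9.

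Deviations of same-numbered mutant and control arrays from their group means correlated by 0.157 to 0.494 in the *Tbx1 LOF* experiment, which met the criterion for pairing (every correlation over 0.1) from the data and not from the labels. Only mutant replicate 4 correlated best with the control of its own number there. Mutant replicates 1, 2 and 3 correlated better with a control of another number, so pairing by number is uncertain. The reported fit and the permutation tests were unpaired, and the replicate block entered as an alternative. In the *β-cat LOF* and rescue experiments some correlations were under 0.1, so the numbers did not meet the criterion there. The replicate block was fitted to all 3 experiments together, and its results for *β-cat LOF* and rescue are given only as an alternative.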

Additional observations from a re-analysis of the deposited data

Results flagged for a closer look

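The change differed between experiments, by a test of the difference itself in limma at an unadjusted p under 0.05, in 7 of 18 differences tested. Of all genes, 6.44% were called in *Tbx1 LOF* minus *β-cat LOF*, 1.71% in *Tbx1 LOF* minus rescue and 4.85% in *β-cat LOF* minus rescue. The 18 differences share arrays and are not independent. Between *Tbx1 LOF* and *β-cat LOF* the difference in log2 fold change was 0.71 for *Bmp2*, 0.22 for *Bmp4*, 0.75 for *Bmp5*, 0.41 for *Bmp7* and 1.62 for *Bmp10*. Between *β-cat LOF* and rescue it was −0.62 for *Bmp5* and −1.16 for *Bmp10*. None passed after adjustment over all genes, where the lowest adjusted p was 0.127, for *Bmp5* between *Tbx1 LOF* and *β-cat LOF*. No array stood far enough from its group by Dixon's criterion in any of the 36 combinations of gene and group, the second replicate of the *β-cat LOF* controls included.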

How the results depend on the processing

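Counts of called ligand genes moved most with the threshold and the weight of single arrays. With array weights 4 were called in *Tbx1 LOF*, 1 in *β-cat LOF*, 1 in *Tbx1 LOF* minus rescue and 1 in *β-cat LOF* minus rescue, where 5.72%, 5.13%, 5.19% and 6.38% of all genes were called. With a term for array numbers 1 and 2 against 3 and 4 it was 4 in *Tbx1 LOF*, against 5.86% of all genes. Arrays numbered 1 and 2 alone gave 1 in *Tbx1 LOF*, against 10.5%. Arrays 3 and 4 alone gave 3 in *Tbx1 LOF* minus *β-cat LOF*, against 4.36%. They also gave 1 in *Tbx1 LOF* minus rescue, against 4.97%, and 1 in *β-cat LOF* minus rescue, against 8.61%. Fitting each experiment's own arrays gave 1 in *β-cat LOF*, 2 in *Tbx1 LOF* minus rescue and 1 in *β-cat LOF* minus rescue. The shares of all genes called there were 4.26%, 2.33% and 6.35%. The filter on low values, which *Bmp10* did not pass and 5 of the 6 did, gave 1 in *β-cat LOF* and 1 in *β-cat LOF* minus rescue. Of all genes that passed this filter, 5.19% and 3.67% were called. A fold change over 1.5 beside the p left 0, 1 and 3 in *Tbx1 LOF*, *β-cat LOF* and their difference, and the adjusted p left 0 everywhere.

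Leaving out single arrays gave 1 to 5 called genes in *Tbx1 LOF*, 2 to 4 in *β-cat LOF*, 0 in rescue, 4 to 6 in *Tbx1 LOF* minus *β-cat LOF*, 0 to 1 in *Tbx1 LOF* minus rescue and 2 to 4 in *β-cat LOF* minus rescue. The 5 came without *β-cat LOF* control replicate 2, as did the 1 in *Tbx1 LOF* minus rescue, and the 4 in *β-cat LOF* and in *β-cat LOF* minus rescue came without its replicate 4. Over these fits the share of all genes called was 3.05% to 6.48% for *Tbx1 LOF* and 2.94% to 8.14% for *β-cat LOF*, with the 8.14% also without control replicate 4. For rescue the share was 0.923% to 2.26%, and for *Tbx1 LOF* minus *β-cat LOF* it was 4.73% to 10.8%. For *Tbx1 LOF* minus rescue it was 1.08% to 3.53%. For *β-cat LOF* minus rescue it was 2.68% to 7.29%, and 6.68% without control replicate 4. With the replicate block 3 genes were called in *Tbx1 LOF* (*Bmp5* added), 3 in *β-cat LOF* (*Bmp7* added), 6 in their difference (*Bmp6* added) and 0 in rescue, where 5.57%, 8.97%, 9.14% and 2.39% of all genes were called. It changed no other call, and in the *β-cat LOF* and rescue experiments the numbers did not meet the criterion for pairing.

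Some directions turned, among them those of *Bmp7* in *β-cat LOF* and in *β-cat LOF* minus rescue, which were both −0.22. Arrays 1 and 2 alone gave −0.0095 for *Bmp2* and −0.031 for *Bmp4* in rescue and −0.0175 for *Bmp6* in *Tbx1 LOF* minus rescue. Arrays 3 and 4 alone gave −0.017 for *Bmp6* and −0.0063 for *Bmp7* in rescue, 0.014 for *Bmp7* in *β-cat LOF*, 0.020 for it in *β-cat LOF* minus rescue and −0.011 for *Bmp4* in *Tbx1 LOF* minus rescue. Array weights gave 0.0094 for *Bmp6* in *β-cat LOF* and 0.00415 in *β-cat LOF* minus rescue. Leaving out single arrays moved the rescue values of *Bmp6* between −0.0064 and 0.026 and of *Bmp7* between −0.031 and 0.050. Of the other settings of single genes, 343 kept direction and side of the threshold, 21 gained the call and 16 lost it. The causes were not tested.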

Other observations

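Among the 6 ligand genes themselves, Pearson's r over the 24 arrays, centred by experiment, was positive for all 15 pairs. It was highest for *Bmp7* with *Bmp10* (0.833) and *Bmp2* with *Bmp5* (0.781) and lowest for *Bmp4* with *Bmp7* (0.301). Without *β-cat LOF* control replicate 2 the pair *Bmp6* and *Bmp10* was highest (0.698, against 0.695 with it), *Bmp7* with *Bmp10* was at 0.588, and *Bmp5* with *Bmp7* was lowest at 0.087, against 0.489 with it. The arrays share genotype, pools and normalization, and no test was made.

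The residual SD of *Bmp10* over the 6 groups was 0.545 and that of *Bmp2* 0.249, against a median of 0.112 over all genes, whereas *Bmp4* was at 0.103 and *Bmp6* at 0.117.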
